A study of Mus musculus with 10 samples.

Results

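ATP-binding cassette (ABC) transporter genes were described in the gastrocnemius, a calf muscle made mainly of fast fibres, by messenger RNA sequencing of 5 samples from mice labelled COPD and 5 from mice labelled control. Both groups were C57BL/6 mice, wild type and 8 weeks old by their labels, and the title of the series names cigarette smoke as the means by which chronic obstructive pulmonary disease (COPD) was modelled. The labels give no dose or length of smoke exposure, sex, batch or hour of collection, and leave unsaid whether 1 animal gave 1 sample, so that p-values may rest on spread that is technical. Members were all genes of the deposited table with a symbol made of Abca to Abcg and a number. There were 45 of 18025 genes, and 35 of them were among the 12697 genes that passed the filter on low counts.

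ABC proteins bind and split ATP in a pair of conserved nucleotide-binding domains and use the energy to move a substrate across a membrane. Members of subfamily A and part of subfamily G export cholesterol, phospholipids and other lipids, and the transcription of Abca1 and Abcg1 is known to be raised by the liver X receptors when cells hold excess sterol. Members of subfamilies B, C and G pump out drugs, conjugated toxins and signalling molecules, others serve mitochondria, peroxisomes and lysosomes, and subfamilies E and F lack membrane domains and act on ribosomes. In striated muscle the C-subfamily protein SUR2, encoded by Abcc9, is known as the regulatory subunit of the ATP-sensitive potassium channel.

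Library totals ran from 14085854 to 17251034 expected counts, so that 1 count per 1000000 of a library (CPM) was 14.1 to 17.3 counts, and CPM values below also carry TMM scaling factors. The summed level of 10 muscle fibre markers was 219196 to 251689 TPM in COPD and 175030 to 258594 TPM in control, as fits the labelled tissue. Y-linked transcripts (3 genes summed) reached 1 CPM in COPD replicates 2 and 3 and in every control, but not in COPD replicates 1, 4 and 5, so that sex, as far as these transcripts show it, moved with the groups. In bulk tissue, fewer cells of a type and less RNA per cell cannot be told apart.

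The question was which transporter genes differ in the muscle of the disease model. Of the members, 0 passed the adjusted threshold of 0.05 by the quasi-likelihood test of edgeR (Benjamini-Hochberg adjustment over all 12697 genes), where 8 genes, 0.063% of those tested, did (0.0551% higher and 0.00788% lower in COPD). At an unadjusted p under 0.05, 8 of the 35 tested members were lower and 2 were higher in COPD, against 6.64% and 7.94% of all tested genes. The lower members were the lipid transporter genes Abca1, Abca3, Abca4, Abca5 and Abca8a and the drug efflux genes Abcb1a, Abcb1b and Abcc1, and the higher ones were Abcc5 and Abcb9. All 5 COPD libraries lay below all 5 controls for Abca1 and Abcb1b and above them for Abcb9, where 1.55% of all tested genes were apart in the lower and 1.29% in the higher direction. DESeq2 called 3 members lower (Abca1, Abca5 and Abcb1b) and 2 higher (Abcb9 and Abcc5), against 1.17% and 2.02% of all tested genes. Without COPD replicate 5, which stood near the controls for many of these genes, edgeR called Abca1, Abca4, Abca5, Abca8a and Abcb1b lower and no member higher, against 1.15% and 2.06% of all tested genes. This library was set aside after the data had been seen.

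**Figure D1:**
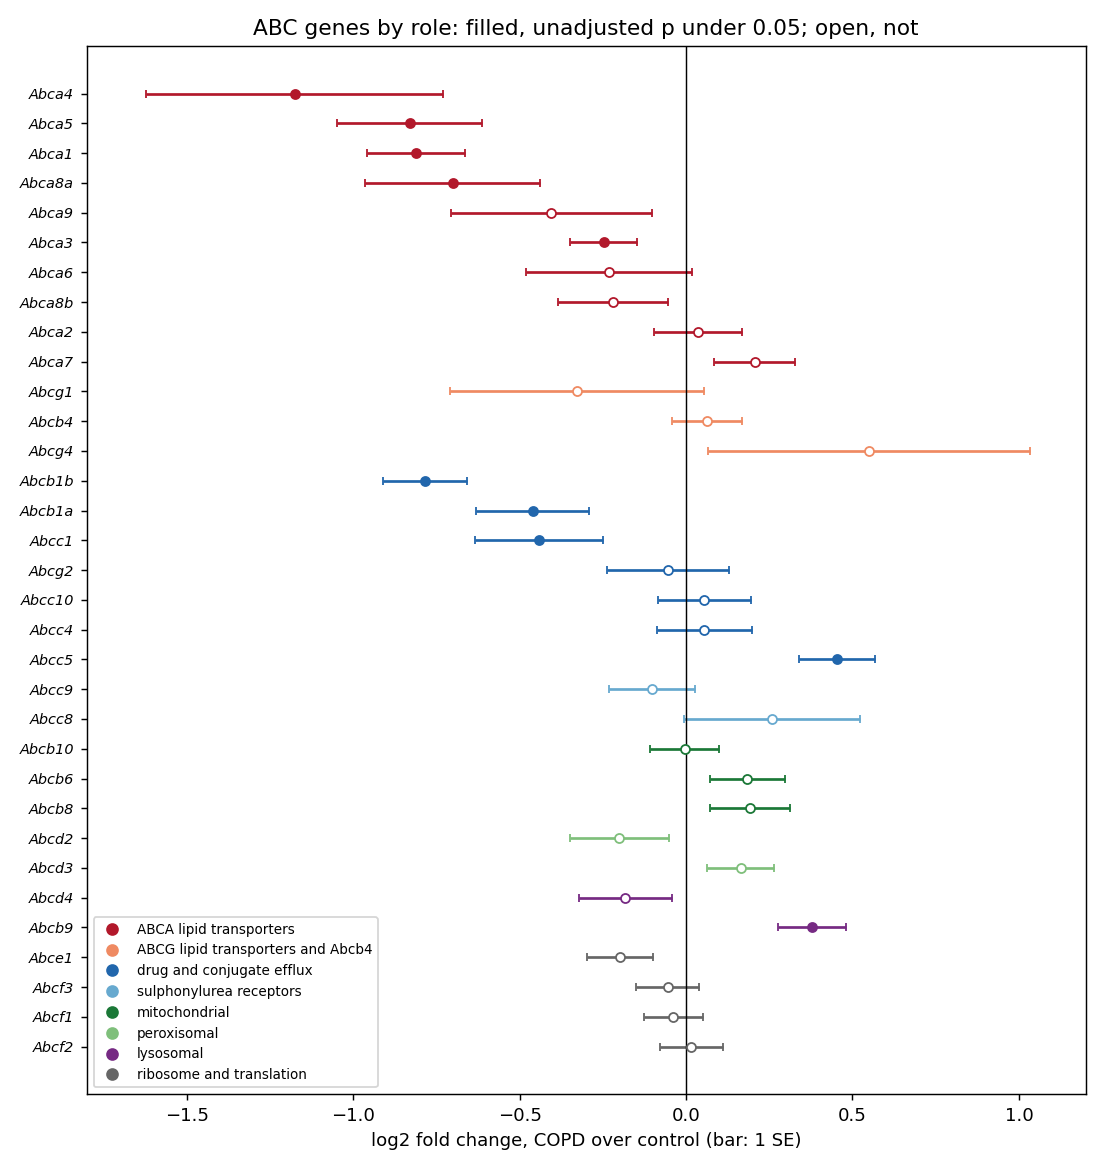
Log2 fold change of COPD over control for 33 tested ABC genes, in blocks by role, with 1 standard error on each side; filled points have an unadjusted p under 0.05 in edgeR. The filled points on the left are ABCA lipid transporters and drug efflux genes, from -1.18 for Abca4 to -0.25 for Abca3, and the filled points on the right are Abcc5 at 0.45 and Abcb9 at 0.38.

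The members spanned a wide range of levels. Per transcript length (TPM), the most abundant were Abcf2, at 104 ± 4.95 TPM in COPD and 119 ± 11.8 TPM in control, Abcb4, at 78.9 ± 10.2 TPM in COPD and 85.1 ± 10.7 TPM in control, Abcf1, at 52.5 ± 4.22 TPM in COPD and 62.4 ± 7.45 TPM in control, and Abcc9, at 38.9 ± 6.55 TPM in COPD and 47.9 ± 8.04 TPM in control (SD, n = 5 each). These 4 genes took 51.8 ± 0.960% of the summed TPM of all members in COPD and 50.7 ± 1.26% in control. The pump genes Abca1, Abcb1a and Abcb1b were low by comparison, with means between 1.62 and 3.49 TPM in COPD and between 3.28 and 6.82 TPM in control. The 10 untested members, Abca13, Abca14, Abca17, Abcc2, Abcc3, Abcc6, Abcc12, Abcg3, Abcg5 and Abcg8, had between 1 and 44 counts over all 10 libraries and at most 12 counts in any library. These few counts allow no comparison. TPM values ran lower in COPD for most genes, members or not: the median log2 fold change over every tested gene was -0.18 with log2(TPM + 1). It was -0.17 with counts scaled by library size alone and -0.01 with TMM scaling, so that the shift depends on the scaling. Unless another scale is named, folds and tests below are on CPM with TMM scaling.

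**Figure D2:**
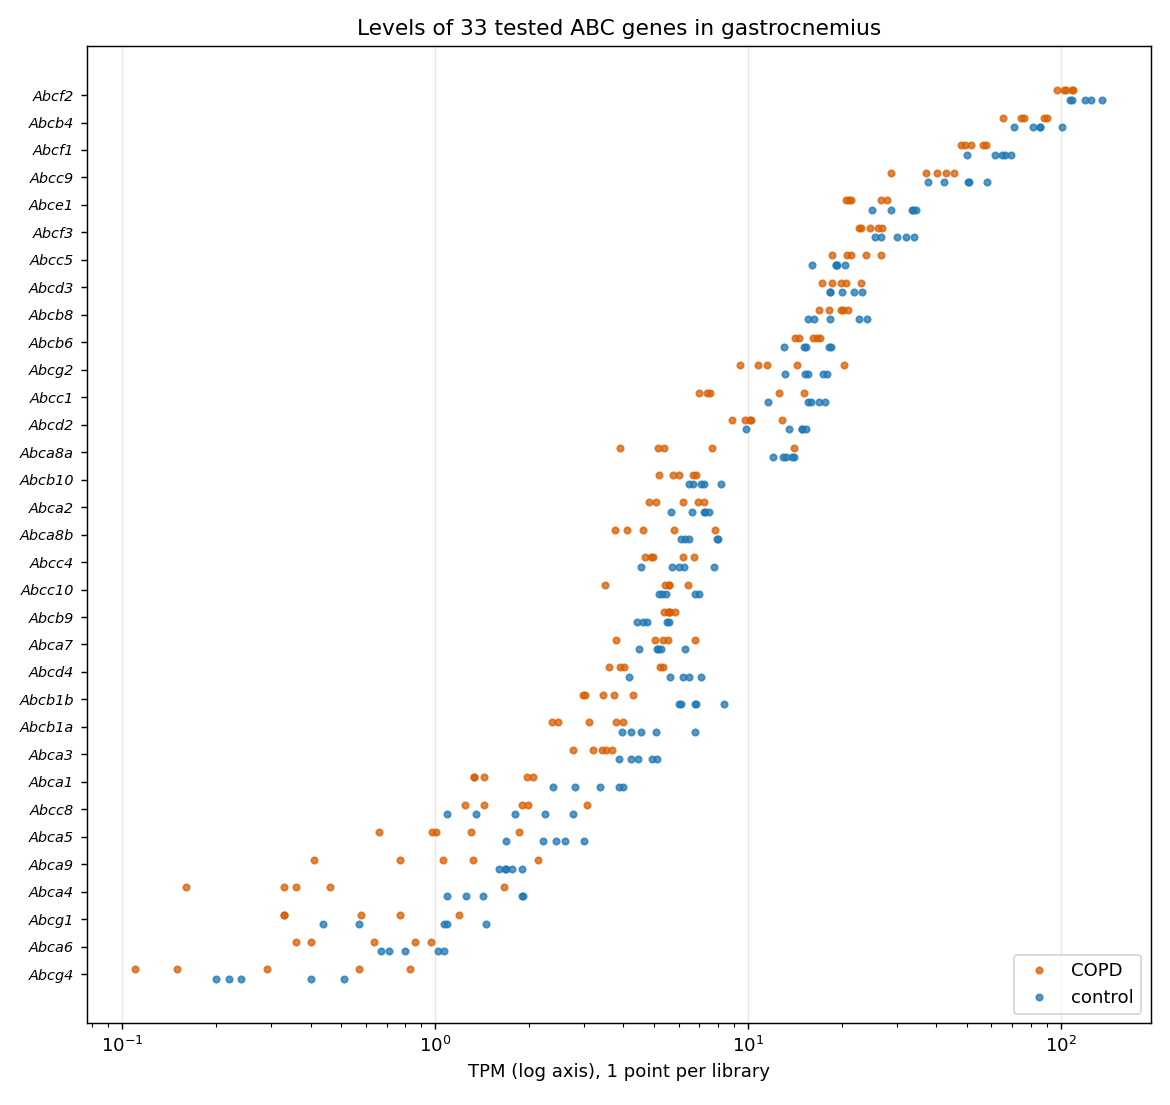
Level of 33 tested ABC genes in TPM, on a log axis, with 1 point per library, COPD drawn above control in each row. Abcf2, Abcb4, Abcf1 and Abcc9 lead the order, and the points of Abca1, Abca4, Abca5, Abca8a and Abcb1b spread to lower values in COPD.

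Among the lipid transporters of subfamily A, 5 of 10 tested genes were lower and 0 higher at an unadjusted p under 0.05, against 6.64% and 7.94% of all tested genes. Of the 10, 8 had a log2 fold change below 0, as did 52% of all tested genes. The median log2 fold change of the 10 was -0.33, beside -0.06 for all 35 tested members and -0.01 for all tested genes. Abca1, the cell surface pump that passes cholesterol and phospholipid to apolipoprotein A-I, had 9.45, 9.32, 9.48, 12.5 and 12.98 CPM in COPD, against 15.97, 21.7, 15.5, 19.1 and 21.9 CPM in control (replicates 1 to 5 in order, as in all lists of values). The groups did not overlap, and COPD replicates 4 and 5 lay closest to the controls. The log2 fold change of Abca1 was -0.81 ± 0.15 (SE), that is 0.5704 times the control level, with an adjusted p of 0.0611 by edgeR and 0.000333 by DESeq2. Abca5, a transporter of late endosomes and lysosomes linked to cholesterol handling, had 3.77, 7.32, 5.22, 5.16 and 9.37 CPM in COPD, against 11.1, 11.8, 8.78, 10.1 and 13.2 CPM in control. COPD replicate 5 lay inside the range of the controls and the other 4 COPD libraries below it (log2 fold change -0.83 ± 0.22, adjusted p = 0.122 by edgeR and 0.0187 by DESeq2).

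Abca8a, a relative of human ABCA8, which is linked to cholesterol efflux, had 15.3, 11.7, 15.2, 20.7 and 38.2 CPM in COPD, against 32.8, 33.5, 36.4, 33.9 and 28.2 CPM in control. COPD replicates 1 to 4 lay below every control and COPD replicate 5 above every control. The log2 fold change was -0.70 ± 0.26 over all libraries (adjusted p = 0.251 by edgeR). Without COPD replicate 5, a choice made after the data had been seen, Abca8a was called lower by edgeR (-1.07 ± 0.15, adjusted p = 0.00713). That fit called 3.21% of all tested genes, against 0.063% with all libraries. Abca4, best known as the retinoid lipid flippase of photoreceptors, was scarce, with 1.403, 0.666, 1.103, 1.49 and 5.39 CPM in COPD, against 3.44, 3.67, 4.99, 5.49 and 5.58 CPM in control. It followed the same order, with COPD replicates 1 to 4 below and COPD replicate 5 within the range of the controls (log2 fold change -1.18 ± 0.44, adjusted p = 0.259 by edgeR). Without COPD replicate 5 the value was -1.98 ± 0.26, adjusted p = 0.00524. Abca3, the surfactant lipid transporter of lung alveolar cells, had 14.3, 12.2, 14.5, 13.7 and 14.6 CPM in COPD, against 15.97, 18.2, 15.9, 17.6 and 14.6 CPM in control, a small difference with overlap only between COPD replicate 5 and control replicate 5 (log2 fold change -0.25 ± 0.10, adjusted p = 0.288 by edgeR). It missed the unadjusted threshold without any 1 of COPD replicates 2 and 4 and control replicates 2 and 4, and in both fits that account for Y-linked transcripts.

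Abca5, Abca6, Abca8a, Abca8b and Abca9 lie next to one another on chromosome 11 in the RefSeq gene order of GRCm38. Their summed level was 39.9, 38.0, 46.5, 48.6 and 85.0 CPM in COPD replicates 1 to 5, against 77.0, 73.2, 75.8, 71.1 and 73.0 CPM in control replicates 1 to 5. The first 4 COPD libraries lay below, and COPD replicate 5 above, all controls. The other members of the run are less well known in function. Abca9 had 1.48 to 7.03 CPM in COPD and 4.77 to 5.503 CPM in control (log2 fold change -0.40 ± 0.30). Abca8b had 14.3 to 26.5 CPM in COPD and 18.7 to 24.3 CPM in control (-0.22 ± 0.17), Abca6 had 1.702 to 3.94 CPM in COPD and 2.39 to 3.86 CPM in control (-0.23 ± 0.25), and the groups overlapped for each. The other 2 tested members of the subfamily, Abca2, a lysosomal lipid transporter abundant in myelin-forming cells of the brain, and Abca7, which handles phospholipids in phagocytes, had log2 fold changes above 0 without a call. Abca2 averaged 32.6 ± 6.58 CPM in COPD and 31.8 ± 1.89 CPM in control and Abca7 22.8 ± 3.498 CPM in COPD and 19.8 ± 1.94 CPM in control (SD, n = 5 each; log2 fold changes 0.04 ± 0.13 and 0.21 ± 0.12).

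**Figure D3:**
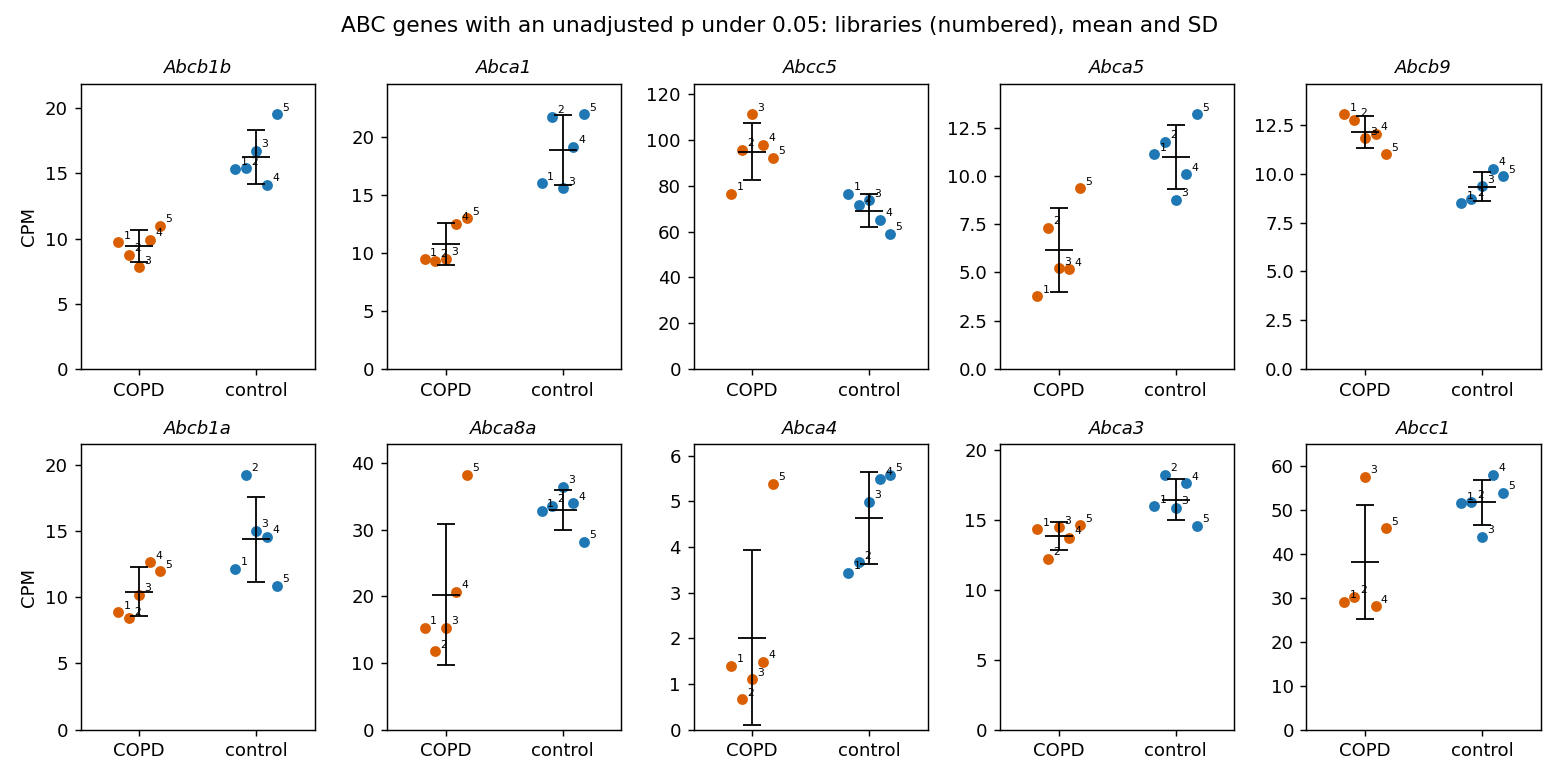
CPM of the 10 ABC genes with an unadjusted p under 0.05, with 1 numbered point per library and the mean and SD of each group in black. COPD replicate 5 lies at or near the controls for Abca4, Abca5 and Abca8a, while Abcb1b, Abca1 and Abcb9 show no overlap of the groups.

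The lipid transporters outside subfamily A showed no call. Abcg1, which loads cholesterol onto high-density lipoprotein and shares with Abca1 its control by liver X receptors, was at 2.36, 1.33, 1.25, 2.78 and 4.29 CPM in COPD, against 4.74, 3.49, 2.13, 3.44 and 1.38 CPM in control. The values overlapped over nearly their whole range (log2 fold change -0.33 ± 0.38, adjusted p = 0.744 by edgeR). The value was -1.231 ± 0.47, adjusted p = 0.2002, with a term for Y-linked transcripts. Abcb4, the phosphatidylcholine flippase needed for bile in liver and one of the most abundant members here, had 179.8, 159, 169, 197 and 201 CPM in COPD, against 172, 170.2, 163, 159.5 and 202 CPM in control. Its groups overlapped and its log2 fold change was 0.06 ± 0.10 (adjusted p = 0.827 by edgeR). Abcg4, a sterol transporter known mostly from brain, had under 2 CPM in every library (log2 fold change 0.55 ± 0.48).

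A list of liver X receptors, their partners and targets, Abca1 and Abcg1 included, had 17 tested genes. None of them passed the adjusted threshold by edgeR, and DESeq2 called 1, Abca1. At an unadjusted p under 0.05, 1 was higher and 4 were lower, against 7.94% and 6.64% of all tested genes. The median log2 fold change of the list was -0.23. Beside Abca1 the lower ones were Nr1h2, which encodes the receptor LXR beta (-0.45 ± 0.16), Apoe, an apolipoprotein that accepts exported cholesterol (-0.67 ± 0.24), and Arl4c, a small GTPase gene (-0.65 ± 0.27). Nr1h2 ran from 58.6 to 82.3 CPM in COPD and 68.9 to 127 CPM in control, and Apoe from 48.9 to 114 CPM in COPD and 84.1 to 144 CPM in control, so that the groups overlapped for both. The retinoid X receptor gene Rxrg, expressed in muscle, was the higher one (0.41 ± 0.18). Nr1h3, which encodes LXR alpha, did not reach the unadjusted threshold (-0.34 ± 0.20). Of 25 tested genes of cholesterol synthesis and uptake, 0 passed the adjusted threshold by edgeR, and DESeq2 called Fdps higher and Fdft1 lower. At an unadjusted p under 0.05, 2 were lower and 1 was higher (against 6.64% and 7.94% of all tested genes), with a median of 0.15. They were Fdps, farnesyl diphosphate synthase (log2 fold change 0.39 ± 0.11), Fdft1, squalene synthase (-0.46 ± 0.10), and Soat1, which esterifies cholesterol (-0.55 ± 0.24). The groups did not overlap for Fdps, higher in COPD, and Fdft1, lower in COPD.

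The promoter of Abca1 is shown because its transcription is the textbook case of sterol-controlled efflux and because it is the lipid pump with the smallest p here. The 250 bases before the RefSeq start on the minus strand of GRCm38.p6, chr4:53159896-53160145, were searched on both strands for CACGTG (E-box), GGGCGG (GC box), CCAAT (the CCAAT box), TATAAA (the TATA box), TTATGNAA (the D-box), GCGTG (the core of the element bound by the aryl hydrocarbon receptor) and a pair of liver X receptor elements. The strict one is AGGTCA repeated after 4 bases, and the looser one, written after the sequence had been seen, is GGTNA followed after 5 bases by GGTCA. Matches are in capitals.
Abca1: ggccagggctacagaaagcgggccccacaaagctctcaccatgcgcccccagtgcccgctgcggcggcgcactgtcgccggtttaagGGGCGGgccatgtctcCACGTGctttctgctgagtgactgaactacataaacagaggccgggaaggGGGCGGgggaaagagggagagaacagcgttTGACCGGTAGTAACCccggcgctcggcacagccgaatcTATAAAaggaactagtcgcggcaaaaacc
Counted back from the start, the E-box begins at -147, the GC boxes at -163 and -97, the looser element at -67 and the TATAAA match at -29. The E-box was found in 6.02% of the 32851 promoter windows of the table, the GC box in 32.7%, TATAAA in 12.4% and the looser receptor element in 0.177%. The strict element was in 0.0152% of windows and in that of no tested member. Windows were at hand for 25 of the 35 tested members, and Abca1 alone among them held the looser element. That match carries no weight, since the looser element was written after the sequence of Abca1 had been seen. A match of letters is a description of the sequence and not a measured binding site.

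Among the genes of drug and conjugate efflux, 3 of 7 tested members were lower and 1 was higher at an unadjusted p under 0.05, against 6.64% and 7.94% of all tested genes. The median log2 fold change of the 7 was -0.06. Mice carry a pair of genes, Abcb1a and Abcb1b, for P-glycoprotein, the broad-range drug pump encoded in humans by the single gene ABCB1. Abcb1b had 9.71, 8.75, 7.796, 9.89 and 10.98 CPM in COPD, against 15.4, 15.4, 16.7, 14.1 and 19.5 CPM in control. All COPD libraries lay below all controls, as they did for Abca1. The log2 fold change was -0.78 ± 0.13, that is 0.581 times the control level, with an adjusted p of 0.0520 by edgeR and 3.80e-05 by DESeq2. By edgeR's p it ranked 10 among all tested genes, the first of the members. Without COPD replicate 5, set aside after the data had been seen, edgeR called it lower (-0.84 ± 0.13, adjusted p = 0.00826). Abcb1a had 8.87, 8.41, 10.2, 12.6 and 11.95 CPM in COPD, against 12.2, 19.2, 14.99, 14.6 and 10.9 CPM in control. COPD replicates 4 and 5 lay within the range of the controls (log2 fold change -0.46 ± 0.17, adjusted p = 0.246 by edgeR). Without control replicate 2 it was -0.33 ± 0.16 and missed the unadjusted threshold.

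The third gene of this run on chromosome 5 is Abcb4, whose values, given above, overlapped between the groups. The difference between its fold change and that of Abcb1b was not tested. Within the P-glycoprotein pair, Abcb1b made up 47.7 ± 4.04% of the summed CPM in COPD and 53.3 ± 7.44% in control (SD, n = 5 each). The pair shares sequence. Of the 75-base windows of the longest GENCODE M21 coding transcript, 12.4% of those of Abcb1b occur in Abcb1a transcripts and 10.6% of those of Abcb1a in Abcb1b transcripts. Read length is not given, so that the window is an assumed one, and the split of counts between the pair is uncertain. The promoters of the pair are shown because the genes are near copies, with log2 fold changes of -0.78 and -0.46 whose difference was not tested. The windows are the 250 bases before each RefSeq start on the plus strand of GRCm38.p6, chr5:8797897-8798146 and chr5:8566841-8567090, with matches to the same motifs in capitals.
Abcb1b: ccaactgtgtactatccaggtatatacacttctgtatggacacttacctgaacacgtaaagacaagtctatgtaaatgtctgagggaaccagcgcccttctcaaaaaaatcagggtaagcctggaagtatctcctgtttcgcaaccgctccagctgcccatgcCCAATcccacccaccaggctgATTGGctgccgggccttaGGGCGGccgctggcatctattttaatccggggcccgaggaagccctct
Abcb1a: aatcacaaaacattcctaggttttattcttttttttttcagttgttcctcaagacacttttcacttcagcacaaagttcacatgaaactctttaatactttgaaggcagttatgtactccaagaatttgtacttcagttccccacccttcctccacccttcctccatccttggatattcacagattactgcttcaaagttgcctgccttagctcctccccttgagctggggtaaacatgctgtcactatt
The window of Abcb1b holds CCAAT matches that begin at -87 and -66, the second on the opposite strand, and a GC box at -48, which were present in 33.8% (CCAAT) and 32.7% (GC box) of all windows. The window of Abcb1a holds no match to these motifs, and GCGTG, found in 28.2% of all windows, is in none of the 3 windows printed. GC content was 52.8% for Abcb1b and 40.4% for Abcb1a.

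Abcc1, which exports glutathione conjugates and leukotriene C4, had 29.1, 30.2, 57.6, 28.1 and 45.9 CPM in COPD, against 51.5, 51.8, 43.9, 58.01 and 53.9 CPM in control. COPD replicates 1, 2 and 4 lay far below the controls, while COPD replicates 3 and 5 lay among them (log2 fold change -0.44 ± 0.19, adjusted p = 0.316 by edgeR). The value was -0.24 ± 0.25 with a term for Y-linked transcripts, and Abcc1 missed the unadjusted threshold there and without any 1 of COPD replicates 1, 2 and 4 or control replicates 1, 2, 4 and 5. Abcc5, an exporter of cyclic nucleotides, ran the other way, with 76.6, 95.9, 111, 97.9 and 92.3 CPM in COPD, against 76.6, 71.5, 73.6, 65.3 and 58.9 CPM in control. Only COPD replicate 1 and control replicate 1 met, at nearly the same value, and the other 4 COPD libraries lay above all controls. Its log2 fold change was 0.45 ± 0.11 (adjusted p = 0.108 by edgeR and 0.0107 by DESeq2), and 0.23 on the log2(TPM + 1) scale. Abcg2, the breast cancer resistance protein, which exports urate and many drugs, had 21.3, 17.2, 14.6, 12.5 and 27.2 CPM in COPD, against 18.3, 20.9, 18.3, 20.9 and 17.96 CPM in control, with COPD replicate 5 the highest and COPD replicate 4 the lowest of all 10 libraries (log2 fold change -0.06 ± 0.18). Abcc4, another exporter of cyclic nucleotides, averaged 19.7 ± 2.23 CPM in COPD and 18.99 ± 3.75 CPM in control and Abcc10, a drug exporter, 14.9 ± 2.31 CPM in COPD and 14.4 ± 2.06 CPM in control, and neither passed the test (log2 fold changes 0.06 ± 0.14 and 0.05 ± 0.14). The exons of Abcc10 share a short stretch with those of Dlk2 on the opposite strand, 51 bases in GENCODE M21, and the sources do not say whether counting used strand.

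Genes that sense and conjugate foreign compounds were listed beside the pumps. Of 13 tested, 0 passed the adjusted threshold by edgeR, and DESeq2 called Ahr lower. At an unadjusted p under 0.05, 2 were lower and 1 was higher, against 6.64% and 7.94% of all tested genes. Ahr, the receptor for aromatic compounds of smoke, ran from 1.63 to 3.98 CPM in COPD and 3.204 to 7.04 CPM in control (log2 fold change -1.04 ± 0.29, adjusted p = 0.139 by edgeR). Its target Cyp1a1, an oxidase of aromatic compounds, ran from 1.33 to 5.22 CPM in COPD and 2.21 to 9.26 CPM in control (-1.04 ± 0.38), and Nfe2l2, the regulator of antioxidant genes, from 41.9 to 57.4 CPM in COPD and 31.4 to 51.5 CPM in control (0.32 ± 0.13). The groups overlapped for each of the 3.

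The sulphonylurea receptors, C-subfamily proteins that gate potassium channels and are not known as pumps, showed no call. Abcc9 (SUR2) had 149, 189.7, 204, 186 and 209 CPM in COPD, against 212, 206, 201, 155 and 233 CPM in control, with wide overlap (log2 fold change -0.10 ± 0.13, adjusted p = 0.765 by edgeR). Abcc8 (SUR1), the receptor of pancreatic beta cells, was at 4.22 to 9.25 CPM in COPD and 2.96 to 7.35 CPM in control (0.26 ± 0.27). The channel pore genes Kcnj11 (Kir6.2) and Kcnj8 (Kir6.1) had log2 fold changes of 0.03 ± 0.13 and -0.12 ± 0.20 and overlapped between groups.

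Of the mitochondrial members Abcb6, Abcb8 and Abcb10, 0 of 3 reached an unadjusted p under 0.05 by edgeR, and DESeq2 called 0. Abcb8, of the inner mitochondrial membrane, had 36.8, 44.4, 41.9, 41.3 and 36.7 CPM in COPD, against 43.2, 28.6, 32.7, 32.5 and 39.04 CPM in control. The lowest value was a control library, and the groups overlapped (log2 fold change 0.19 ± 0.12). Abcb6, a porphyrin transporter, had 32.3, 33.5, 26.02, 29.99 and 25.6 CPM in COPD, against 23.8, 29.6, 23.9, 28.3 and 24.03 CPM in control, with COPD replicates 1, 2 and 4 above all controls and the other COPD libraries among them (0.18 ± 0.11). Of its 75-base windows, 88.5% also occur in Gm29253 transcripts of GENCODE M21, and it is not known how the authors counted reads shared by them. Abcb10, which supports haem synthesis, had 15.3, 19.7, 15.7, 18.3 and 15.98 CPM in COPD, against 17.3, 15.4, 18.3, 16.8 and 17.3 CPM in control, with nearly equal means. The value of Abcb6 turned below 0 on the log2(TPM + 1) scale, at -0.02. Of 27 tested genes of haem synthesis and iron-sulfur cluster assembly, 0 passed the adjusted threshold by edgeR, and DESeq2 called 1, Ciapin1. At an unadjusted p under 0.05, 8 were higher and 0 lower in COPD, against 7.94% and 6.64% of all tested genes, and the list's median was 0.10. Ciapin1, an electron carrier of cytosolic cluster assembly, had 23.7, 26.2, 29.99, 26.9 and 23.2 CPM in COPD, against 20.3, 18.97, 19.5, 19.1 and 14.7 CPM in control, without overlap (0.49 ± 0.11, adjusted p = 0.0973 by edgeR). The cluster assembly genes Iba57, Glrx5 and Bola3 had log2 fold changes of 0.59 ± 0.21, 0.33 ± 0.13 and 0.28 ± 0.11.

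The peroxisomal half-transporters carry fatty acyl-CoA into peroxisomes, and neither Abcd2 nor Abcd3 reached an unadjusted p under 0.05 in the reported edgeR fit, with 0 called by DESeq2. Abcd2, a carrier of long fatty acyl chains, had 39.3, 40.4, 47.3, 31.8 and 36.02 CPM in COPD, against 49.2, 42.8, 54.7, 31.3 and 45.7 CPM in control. Abcd3, for branched chains and bile acid precursors, had 40.8, 48.5, 43.2, 48.4 and 38.8 CPM in COPD, against 43.8, 34.6, 39.8, 37.6 and 40.3 CPM in control. The groups overlapped for both, with log2 fold changes of -0.20 ± 0.15 and 0.16 ± 0.10, and that of Abcd3 was -0.03 on the log2(TPM + 1) scale. Abcd2 was at -0.36 ± 0.14 on that scale and at -0.34 ± 0.14 with library size alone, past the unadjusted threshold in both. The median of all tested genes was -0.18 and -0.17 there. In the list of peroxisome import and beta oxidation, 1 gene was higher and 1 lower of 27 tested at an unadjusted p under 0.05, against 7.94% and 6.64% of all tested genes. Those past the threshold in the list were the peroxin genes Pex16 (0.29 ± 0.13) and Pex3 (-0.37 ± 0.15). The list's median was -0.02, with 0 called by edgeR or DESeq2.

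Of the lysosomal members, Abcb9, a peptide carrier related to the TAP transporters, had 13.1, 12.8, 11.8, 12.1 and 11.02 CPM in COPD, against 8.52, 8.698, 9.37, 10.3 and 9.89 CPM in control. Every COPD library lay above every control, with COPD replicate 5 the lowest of its group (log2 fold change 0.38 ± 0.10, adjusted p = 0.132 by edgeR and 0.0488 by DESeq2). On the log2(TPM + 1) scale the groups overlapped and the value was 0.149 ± 0.10, adjusted p = 0.326 by limma. Abcd4, which with its partner releases vitamin B12 from lysosomes, averaged 7.51 ± 1.04 CPM in COPD and 8.54 ± 1.18 CPM in control (log2 fold change -0.18 ± 0.14). Tap1 and Tap2, which load peptides on MHC class I in the endoplasmic reticulum, also belong to subfamily B but carry other symbols and are not counted as members. Tap2 had 8.58, 8.13, 9.05, 9.65 and 12.6 CPM in COPD, against 15.5, 20.2, 20.95, 14.3 and 13.9 CPM in control, without overlap and in the direction opposite to Abcb9 (-0.82 ± 0.16, adjusted p = 0.0780 by edgeR). Tap1 ran from 3.63 to 8.700 CPM in COPD and 8.08 to 23.5 CPM in control (-1.22 ± 0.30), and the class I heavy chain genes H2-K1 and H2-D1 had log2 fold changes of -0.62 ± 0.17 and -0.54 ± 0.17. Of the 11 genes of the peptide loading list, 8 were lower and 0 higher at an unadjusted p under 0.05 (against 6.64% and 7.94% of all tested genes), with a median of -0.45. In that list edgeR called 0 at the adjusted threshold, and DESeq2 called Tap1, Tap2 and H2-K1 lower.

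None of the 4 members that act on ribosomes reached an unadjusted p under 0.05 in the reported edgeR fit, and DESeq2 called 0. Abce1, which splits ribosomes after termination, had 55.8, 53.6, 51.97, 62.7 and 65.3 CPM in COPD, against 60.8, 69.9, 60.2, 70.8 and 70.2 CPM in control. COPD replicates 1, 2 and 3 lay below all controls and COPD replicates 4 and 5 among them (log2 fold change -0.20 ± 0.10, adjusted p = 0.376 by edgeR). With library size alone the value was -0.36 ± 0.12 and with a term for Y-linked transcripts -0.33 ± 0.13, and both of these, as well as upper-quartile scaling, put Abce1 past the unadjusted threshold. So did limma on log2(TPM + 1), at -0.39 ± 0.13, on log2(TPM + 0.1), at -0.40 ± 0.13, and on log2(TPM + 1) without a filter, at -0.39 ± 0.12. The median of all tested genes in these limma fits, in order, was -0.18, -0.21 and -0.10, and with library size alone -0.17. There 23.8%, 23.8%, 18.4% and 18.7% of all tested genes were lower at an unadjusted p under 0.05. Abcf1, linked to the start of translation, and its relatives Abcf2 and Abcf3 had log2 fold changes of -0.04 ± 0.09, 0.02 ± 0.09 and -0.06 ± 0.09. Of 10 tested genes of ribosome recycling and amino acid sensing, 1 was lower and 0 higher at an unadjusted p under 0.05, against 6.64% and 7.94% of all tested genes. The lower one was the release factor gene Etf1 (-0.41 ± 0.14), and 0 of the list were called by edgeR or DESeq2.

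The COPD libraries were not alike in their transporter genes. Of the 35 tested members, 17, 16, 16, 11 and 4 lay below all 5 controls in COPD replicates 1 to 5, where 26.0%, 26.1%, 23.7%, 21.6% and 19.5% of all tested genes did. Members above all controls numbered 3, 11, 5, 5 and 11, where 23.3%, 21.5%, 23.7%, 20.6% and 19.7% of all tested genes were. COPD replicate 5 had the highest CPM of the 5 COPD libraries for 19 of the 35 members, against 26.4% of all tested genes. On the log2(CPM + 0.5) scale centred on the control mean, the median of the 10 ABCA genes was -0.68, -0.56, -0.61, -0.37 and 0.22 in COPD replicates 1 to 5, and between -0.04 and 0.08 in the controls. The median coefficient of variation over the tested members was 13.9% in COPD, 13.8% in COPD without replicate 5 and 10.2% in control. It was larger in COPD for 26 of the 35 members (19 of 35 without COPD replicate 5), a difference that was not tested. The same count was not made over all tested genes, so that it cannot be read as particular to the transporters. With COPD replicate 5 set aside, a choice made after the data had been seen, the groups did not overlap for 7 members lower in COPD (Abca1, Abca3, Abca4, Abca5, Abca8a, Abca9 and Abcb1b) and for 1 higher (Abcb9), against 4.18% and 4.8% of all tested genes.

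**Figure D4:**
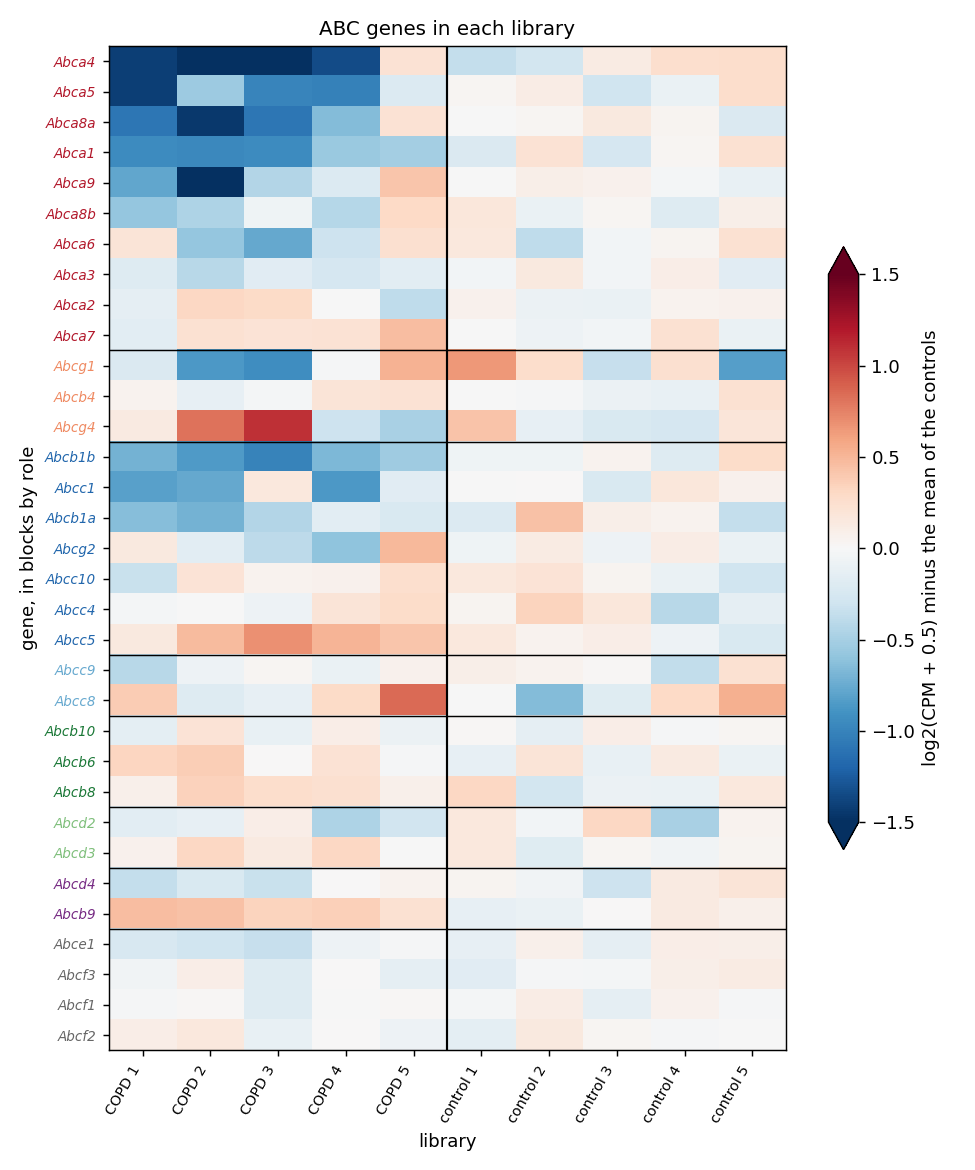
Values of 33 tested ABC genes in each library as log2(CPM + 0.5) minus the mean of the controls, in blocks by role; blue is lower, red is higher and colours saturate at 1.5. The ABCA block is mostly blue in COPD replicates 1 to 4, with medians from -0.68 to -0.37 and with Abca2, Abca6 and Abca7 red in some of them, and mixed in COPD replicate 5, with a median of 0.22 and with Abca1, Abca2, Abca3 and Abca5 blue.

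Markers of other cells of the muscle were set beside these genes, since several of the transporters are known from macrophages, vessels and connective tissue. Of 10 tested macrophage markers, 4 were lower and 0 higher at an unadjusted p under 0.05, where 6.64% of all tested genes were lower and 7.94% higher. The summed level of the macrophage markers was 44.1 to 143 TPM in COPD and 108 to 186 TPM in control. Within COPD the highest sum was in replicate 5, with 44.1 to 92.6 TPM in the other COPD libraries. Of 12 endothelial markers, 1 was higher and 0 lower, with sums of 224 to 385 TPM in COPD and 264 to 410.4 TPM in control. Of 8 fibroblast markers, 2 were higher and 1 lower, with sums of 276 to 473 TPM in COPD and 433 to 547 TPM in control. On the CPM scale 6 fibroblast markers had a log2 fold change above 0 and 2 below, with a median of 0.35. All marker sums are in TPM, a scale on which most genes ran lower in COPD, while the tests are on CPM. Smooth muscle and pericyte markers summed to 234 to 313 TPM in COPD and 273 to 353 TPM in control and Schwann cell markers to 86.2 to 295 TPM in COPD and 127 to 249 TPM in control, with 0 of 8 and 0 of 6 at an unadjusted p under 0.05 by edgeR. Of 6 adipocyte markers, 1 was higher and 0 lower, with sums of 3726 to 8385 TPM in COPD and 2675 to 6319 TPM in control, and of 5 tendon markers, 2 were higher and 0 lower, with sums of 42.6 to 102 TPM in COPD and 31.1 to 58.1 TPM in control. Erythroid sums were 357 to 4070 TPM in COPD and 141 to 3024 TPM in control and neutrophil sums 1.61 to 216 TPM in COPD and 11.9 to 909.9 TPM in control, with 0 of 5 and 0 of 3 at an unadjusted p under 0.05 by edgeR. COPD replicate 5 had the highest sums of its group for erythroid, neutrophil, smooth muscle and pericyte, and muscle fibre markers as well. Another COPD library was higher for endothelial, fibroblast, Schwann cell, adipocyte and tendon markers. The ranges of COPD and control overlapped for all of these sums. By the adjusted threshold edgeR called none of the markers, and DESeq2 called Col3a1 among the fibroblast and Tnmd and Thbs4 among the tendon markers higher. Each marker that is in the table had counts in at least 1 library. The part of these cells, and of sex, in the transporter values was not tested, apart from a pair of fits that account for Y-linked transcripts. With a term for them edgeR called Abca1 (-1.005 ± 0.19, adjusted p = 0.0298) and Abcb1b (-0.972 ± 0.16, adjusted p = 0.0171) lower. With only the 7 libraries that held such transcripts, edgeR called Abca1, Abca4, Abca8a and Abcb1b lower and Abcc5 higher. Calls rose over the whole table too, to 1.70% of all tested genes with the term and 3.70% in those libraries, against 0.063% in the reported fit. In both fits the COPD effect is set by replicates 2 and 3, since the controls held no library without such transcripts.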

How the data were processed

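Per the labels' protocols, oligo(dT) beads captured messenger RNA, which was copied from random hexamers. The authors deposited expected counts per gene symbol, of which 30.7% were not whole numbers, and TPM for the same genes. The build mm9 and the tools RSEM 1.2.12, HISAT2 2.0.4, DESeq2 1.4.5 and Bowtie2 2.2.5 are listed, without roles, per the submitters' processing notes. Strandedness and read length are not given in the sources used here.

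Expected counts were rounded, filtered by filterByExpr, scaled by TMM and tested over all 12697 genes with edgeR 4.0.16 (glmQLFit, glmQLFTest; R 4.3.3), COPD over control, with Benjamini-Hochberg adjustment at 0.05. The standard error is the log2 fold change divided by the square root of F. The procedure was tested on simulated counts drawn with the dispersions fitted here. They held no outlying library and no Y-linked difference, so that the test does not bear on these features of the data. Alternatives used DESeq2 1.42.0, limma 3.58.1, other scalings and filters, and each library left out in turn. Members, roles, gene lists and markers were chosen with earlier results of these data known. Values per sample are given for members at an unadjusted p under 0.05 and for a set list of 14 further or overlapping members; from each pathway list up to 4 genes at an unadjusted p under 0.05 are named. All library pairs differed by more than counting noise (chi-square over degrees of freedom from 17.6 to 122), and each library was kept as its own sample. Promoters come from RefSeq (GRCm38.p6), and gene overlaps from GENCODE M21 on GRCm38. Individual values of 2 tested members are not reported here, though all counts and medians over members include them. No coordinates are given for the files' own build.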

Additional observations from a re-analysis of the deposited data

Results flagged for a closer look

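Within the groups of 5 libraries, 40 sets of values (20 described members, COPD and control) were searched for a library that stands apart, where chance marks about 1 set in 20. Abca4 in COPD was marked, with a gap of 0.825 of the group's range between COPD replicate 5, at 5.39 CPM, and the other 4 COPD libraries, at 0.666 to 1.49 CPM.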

How the results depend on the processing

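Whether a member passed the adjusted threshold of 0.05 depended on the fit. With all libraries, 1 member (Abcb1b) passed with upper-quartile scaling, with library size alone, with no low-count filter and with limma on log2(TPM + 1) or log2(TPM + 0.1), 5 passed with DESeq2, 4 with voom and sample weights (Abca1, Abca4, Abca8a and Abcb1b) and 2 with a term for Y-linked transcripts (Abca1 and Abcb1b). With only the libraries that held Y-linked transcripts, 5 passed (Abca1, Abca4, Abca8a, Abcb1b and Abcc5). With 1 library left out, 0 to 5 passed, and all 5 came without COPD replicate 5. In the whole table, 8 genes passed in the reported fit, 10 with upper-quartile scaling and 6 with library size alone. There were 17 with no filter, 405 with DESeq2, 137 with voom, 216 with the Y-linked term and 488 in the Y-linked libraries. Fits to TPM gave 44 and 36 with log2(TPM + 1) and log2(TPM + 0.1), and 2 with log2(TPM + 1) and no filter. With 1 library left out there were 0 to 410, namely 0 without COPD replicate 2, 5 without COPD replicate 4, 3, 3, 1, 1 and 2 without control replicates 1 to 5, and 410 without COPD replicate 5. Without COPD replicate 1 there were 5 higher and 1 lower, and without COPD replicate 3 there were 8 higher and 3 lower. The cause was not tested.

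At an unadjusted p under 0.05, members higher in COPD numbered 1 with library size alone (3.17% of all tested genes) and 0 in each of the 3 fits to TPM (2.23%, 2.19% and 1.98%). They numbered 4 with the Y-linked term (9.04% of all tested genes) and 4 in the Y-linked libraries (10.8%). Members lower in COPD numbered 15, 15 and 18 with log2(TPM + 1), log2(TPM + 0.1) and log2(TPM + 1) without a filter, where 23.8%, 23.8% and 18.4% of all tested genes were lower. With 1 library left out, members lower in COPD numbered 5 (without control replicate 2, 5.23% of all tested genes) to 11 (without COPD replicate 5, 10.1%). The median log2 fold change of the members was -0.22 with library size alone and -0.24, -0.28 and -0.18 in those TPM fits, scales on which the median of all tested genes shifts too (-0.17 with library size alone and -0.18 with log2(TPM + 1)). Leaving out COPD replicate 5, chosen after seeing the data, raised the members with no overlap, lower in COPD, to 7, against 2 with all libraries. The share of all tested genes that were lower without overlap rose too, from 1.55% to 4.18%.

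Over 23 settings, the log2 fold change of Abcb1b ran from -0.97 to -0.71 (adjusted p 3.80e-05 to 0.152) and that of Abca1 from -1.005 to -0.703 (adjusted p 0.000333 to 0.160). Signs turned for members without a call. Abcb10 was at 0.00431 with RLE scaling, 0.00428 with DESeq2, 0.0036 with voom, 0.0541 with the Y-linked term and 0.0644 in the Y-linked libraries, and ran from -0.0617 (without COPD replicate 2) to 0.0344 (without COPD replicate 3) with 1 library left out. Abcb4 was at -0.0907 with library size alone, -0.108, -0.109 and -0.108 in the TPM fits, -0.0810 with the Y-linked term and -0.0718 in the Y-linked libraries. In the TPM fits Abcd3 was at -0.0307, -0.0321 and -0.0307 and Abcb6 at -0.0213, -0.0221 and -0.0213. Abcg2 was at 0.0299 and 0.0594 without COPD replicates 3 and 4.

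Replicate numbers did not pair the samples (correlations of same-numbered libraries from -0.14 to 0.04), and a fit with the replicate block called 7 genes and 0 members. It left 7 members lower and 2 higher at an unadjusted p under 0.05, against 5.92% and 7.13% of all tested genes. The median of the members was -0.06. The 10 members left untested had too few counts for any statement.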
